A study of Rattus norvegicus with 65 samples.

Results

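Neurod6, Neurod2, Tbr1, Slc17a7 and Emx1, 5 genes by which glutamatergic neurons of the cerebral cortex are recognised, were followed through the RNA of rat hypothalami. They were chosen by name, with earlier results of these data known. Each had 1 row among the 38513 genes of the count table, and all 5 passed the filter on low counts, as did 22207 genes in all. The labelled tissue of every library was hypothalamus, a region below the cortex, and these genes are known for other parts of the brain. They were low in most animals, and very high in a few. By edgeR they passed the thresholds for regulation in none of the comparisons between groups, while DESeq2 called 3 of them in BWM vs. sham and 1 in sham vs. saline of batch A. Over all genes, the alternative settings, DESeq2 among them, called 62 to 920 and 0 to 34 in these comparisons.

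The 5 genes have linked roles. Neurod2 and Neurod6 encode transcription factors of the basic helix-loop-helix family, which bind short DNA motifs called E-boxes and are used by maturing glutamatergic neurons of cortex and hippocampus. Tbr1, a T-box transcription factor, specifies neurons of the deep cortical layers and is also used in the amygdala and the olfactory bulb. Emx1, a homeobox transcription factor, marks the lineage of the dorsal telencephalon, from which these neurons arise. Slc17a7 encodes VGLUT1, which loads glutamate into synaptic vesicles in cortex and hippocampus, whereas glutamate neurons of hypothalamus and thalamus mostly use VGLUT2, the product of Slc17a6. GABA neurons, which are common in the hypothalamus, load their vesicles with the product of Slc32a1.

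The libraries came from 65 male Wistar rats, 1 per animal, which were 9 to 10 weeks old at the start. Animals of the treated and control groups were made obese by 6 weeks of high-fat diet, and brains were taken 4 weeks after the intervention, in animals fasted for 10 h. There were 14 RYGB-treated animals (Roux-en-Y gastric bypass, which shortens the path of food past the stomach), 11 sham-treated animals and 7 BWM animals, whose food was restricted so that body weight matched RYGB-treated animals. Saline was given to 8 animals by minipump and by injection. Liraglutide (0.4 mg/kg/day, injected), an agonist of the GLP-1 receptor, was given to 5 animals, and the gut hormone PYY3-36 (0.1 mg/kg/day, by minipump) to 4 animals. Both together were given to 10 animals. For the 6 lean animals the labels name no diet or treatment. RYGB-, sham-, saline- and hormone-treated animals chose freely between high-fat and low-fat food. The animals were studied in 2 experimental periods, called batches. Batch A held RYGB (11 animals), sham (5), BWM (7), lean (6), saline (3) and PYY3-36 + liraglutide (5). Batch B held RYGB (3), sham (6), saline (5), PYY3-36 + liraglutide (5), PYY3-36 (4) and liraglutide (5). Groups were compared inside a batch, and animals are called below by the group and the replicate number of their label.

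Counts on genes ran from 20041010 to 36539941 per library, with a median of 27379945. The median per library was 15 counts for Emx1, 26 for Neurod2, 63 for Tbr1, 78 for Neurod6 and 562 for Slc17a7. Relative to level, counting error was therefore largest for Emx1 and Neurod2. The SE of fitted differences did not follow the counts. In RYGB vs. sham of batch A it was 0.97 for Neurod2 and 1.08 for Slc17a7. Levels are given as CPM, the count scaled to a fixed library size after normalisation by TMM. In the annotation of Rnor_6.0, Neurod6 lies on chromosome 4 from 85911861 to 85915107 on the minus strand, Emx1 on chromosome 4 from 116967646 to 116984136 on the plus strand, and Neurod2 on chromosome 10 from 86280865 to 86282681 on the minus strand. Tbr1 lies on chromosome 3 from 47677720 to 47685902 and Slc17a7 on chromosome 1 from 101161265 to 101172292, both on the plus strand. The counts were made over the exons of each gene. Neurod6 and Neurod2 both encode E-box factors. The 250 bases before the start of each are shown, with the E-box CAGATG or its reverse complement CATCTG in capitals. The sequences are those of RefSeq on GRCr8, another build than that of the counts, in which all 5 genes were matched. The Neurod6 window is chr4:86180156-86180405 and the Neurod2 window is chr10:83824278-83824527, both printed 5′ to 3′ along the minus strand.
Neurod6: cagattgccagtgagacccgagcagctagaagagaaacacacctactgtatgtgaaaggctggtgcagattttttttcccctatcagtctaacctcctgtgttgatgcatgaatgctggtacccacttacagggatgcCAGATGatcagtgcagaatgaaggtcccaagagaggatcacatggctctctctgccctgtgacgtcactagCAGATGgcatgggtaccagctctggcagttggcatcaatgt
Neurod2: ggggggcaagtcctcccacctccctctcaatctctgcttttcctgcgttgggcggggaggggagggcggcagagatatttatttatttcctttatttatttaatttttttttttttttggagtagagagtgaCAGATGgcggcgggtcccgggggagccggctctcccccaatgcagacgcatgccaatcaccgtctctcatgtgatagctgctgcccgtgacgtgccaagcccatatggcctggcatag
The motif begins 112 and 41 bases before the start of Neurod6 and 118 bases before that of Neurod2. Searched on both strands, it was in the windows of 2 of the 5 genes and in 14% of all 33469 windows of this length. These letters were not in the windows of Tbr1, Slc17a7 and Emx1, and other E-boxes were not searched for. The part of the motif in the levels of these genes was not tested.

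The highest levels of the cortical neuron genes were in libraries in which markers of the hypothalamus were nearly absent. The summed CPM of the 5 genes ran from 2.86 to 1891 over the 65 libraries, with a median of 28.3. It was 1891 in sham replicate 2, which was 66.7 times the median. It was 41.4 times the median in saline replicate 4, 29.5 times in RYGB replicate 6, 25.6 times in PYY3-36 replicate 2 and 25.5 times in lean replicate 2. In 4 of these 5 libraries, the summed CPM of 12 hypothalamus markers (Pomc, Agrp, Hcrt, Pmch, Avp, Oxt, Trh, Sim1, Otp, Nr5a1, Nkx2-1 and Rax) was between 12.5 and 32.6, against a median of 1750 over all libraries. In sham replicate 2, all 12 markers were under their median, 9 of them under 0.1 of it, and Sim1, Otp and Rax had no count, where 3 counts are taken as the least that a library would show. In saline replicate 4, all 12 were under their median, 10 of them under 0.1 of it, and Rax had no count. All 12 were also under their median in lean replicate 2, where Hcrt and Otp had no count, and in PYY3-36 replicate 2, where Rax had none. Rax was near the floor in the series, with a median of 0.134 CPM. It also had no count in libraries with high markers, such as PYY3-36 + liraglutide replicate 10, whose markers summed to 8230 CPM. In RYGB replicate 6, 10 of the 12 markers were under their median and 3 under 0.1 of it, but none was at 0, and they summed to 702.8 CPM, 0.402 of the median. Its markers of choroid plexus, the tissue that makes cerebrospinal fluid, were at 77.8 times their median.

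Low hypothalamus markers were not always joined by high cortical neuron genes. In 12 libraries the summed hypothalamus level was under 0.1 of the median, a threshold set after the levels were seen. In the 5 of them not yet named whose cortical sum was above 40 CPM, it was 43.4 in liraglutide replicate 3, 46.0 in sham replicate 6, 128.6 in lean replicate 5, 198.6 in liraglutide replicate 4 and 216.1 in PYY3-36 + liraglutide replicate 8. In BWM replicate 1, saline replicate 3 and sham replicate 10 it was 18, 20.8 and 4.98. Markers of the striatum, the deep forebrain region of Drd1 and Drd2 neurons, summed to 14 times their median in BWM replicate 1, 11.8 times in sham replicate 10 and 10.5 times in sham replicate 6. In the reverse direction, sham replicate 3 and PYY3-36 + liraglutide replicate 4 had 10.3 and 7.69 times the median of the cortical neuron genes, with hypothalamus markers at 2.36 and 1.82 times their median. In bulk tissue, more cells of a type and more RNA per cell cannot be told apart, and the part of dissection in these levels was not tested.

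**Figure D1:**
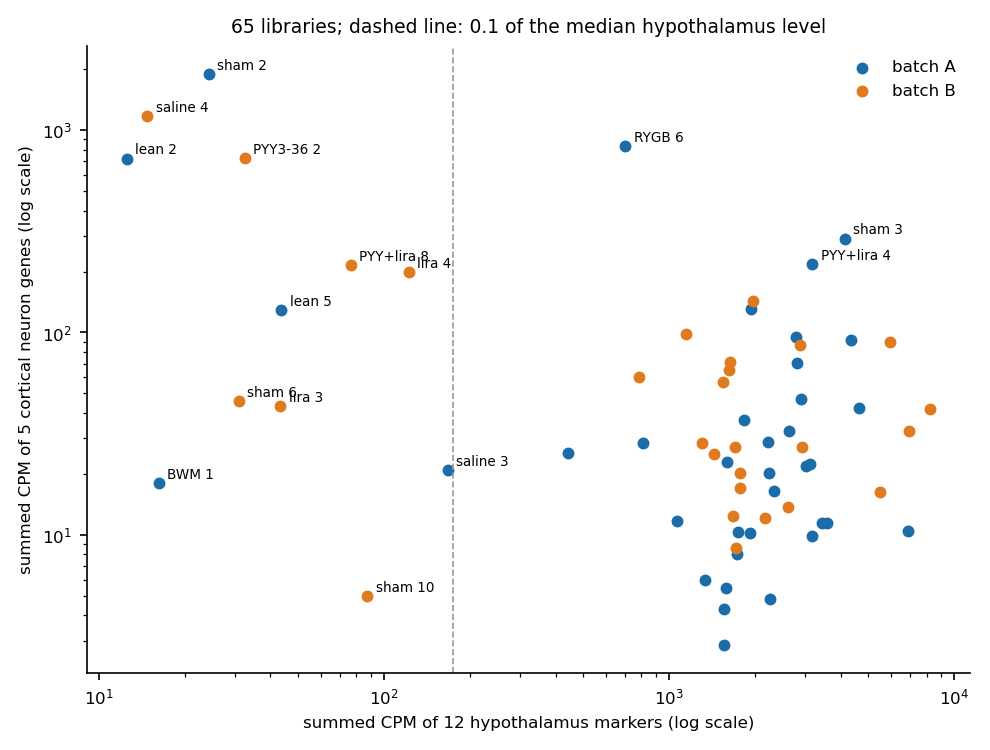
Summed CPM of the 5 cortical neuron genes (vertical, log scale) against summed CPM of 12 hypothalamus markers (horizontal, log scale), 1 point per library, batch A in blue and batch B in orange. Left of the dashed line, at 0.1 of the median hypothalamus level, lie 12 libraries, among them 4 of the 5 with the highest level of the cortical neuron genes; sham replicate 3 and PYY3-36 + liraglutide replicate 4 are high on both axes.

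Neurod6 had a median of 2.76 CPM and ran from 0.336 to 284.6 CPM. In sham-treated animals 1 to 5 of batch A it was 2.52, 284.6, 12.6, 0.991 and 0.506 CPM, and in the 6 sham-treated animals of batch B the lowest, median and highest values were 0.624, 2.07 and 2.91. So 1 animal held 94.5% of the summed Neurod6 of its group, whose mean was 60.2 ± 125.5 (SD, n = 5). RYGB-treated animals of batch A went from 0.336 over a median of 1.0 to 99.3 CPM in replicate 6, and replicates 12 to 14 of batch B had 2.54, 7.18 and 1.84. BWM animals had 0.469, 2.97 and 15.5 CPM as lowest, median and highest values, and lean animals 0.832, 3.65 and 58.1. The medians of these groups lay within a few CPM of each other, and in each of them in batch A 1 animal stood above the rest. In saline-treated animals 1 to 3 Neurod6 was 2.52, 0.613 and 0.873 CPM, and in animals 4 to 8 of batch B it was 26.4, 0.962, 16.7, 3.47 and 3.34. With PYY3-36 + liraglutide it was 2.47, 1.65, 0.412, 27.4 and 2.76 in animals 1 to 5 and 0.804, 2.75, 6.59, 3.32 and 5.56 in animals 6 to 10. The values were 9.53, 118, 3.90 and 4.93 with PYY3-36 and 5.23, 5.68, 3.11, 14.3 and 11 with liraglutide. Every hormone-treated group therefore overlapped with the saline-treated animals of its batch.

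Neurod2 was lower, with a median of 1.01 CPM and a range from 0.137 to 96.9 CPM. In sham-treated animals 1 to 5 it was 0.787, 96.9, 15.0, 0.294 and 0.578 CPM, with a mean of 22.7 ± 42.0 (SD, n = 5), and in batch B sham-treated animals stayed between 0.175 and 0.825 with a median of 0.620. RYGB-treated animals of batch A ran from 0.201 over 0.750 to 35.4, again in replicate 6, while those of batch B had 1.01, 1.44 and 0.790. BWM animals (0.289, 1.23 and 4.58 as lowest, median and highest) had no animal above 5 CPM, whereas lean animals (0.516, 1.53 and 23.8) had replicates 2 and 5 above it. The same animals thus led as for Neurod6. Saline-treated animals had 2.37, 0.355 and 0.873 CPM in batch A, against 25.5, 0.831, 3.21, 1.24 and 2.05 in batch B. Values with PYY3-36 + liraglutide were 1.72, 1.88, 0.137, 9.21 and 1.05 in batch A, against 0.312, 0.328, 6.46, 0.233 and 1.23 in batch B. With PYY3-36 they were 2.09, 27.0, 3.08 and 4.08, and with liraglutide 5.5, 0.729, 0.394, 4.86 and 2.42. All 6 sham-treated animals of batch B, at 0.825 CPM or less, lay under all 5 saline-treated animals of that batch, at 0.831 or more, where 0.793% of all tested genes had ranges that did not overlap, in either direction. The nearest values were 17 counts in sham replicate 8 and 19 in saline replicate 5, a gap smaller than counting error.

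Tbr1 had a median of 2.23 CPM and its 2 highest animals were not those of Neurod6. RYGB replicate 6 had 41.7 CPM, the highest of all, in a group that ran from 0.322 over a median of 2.01, and saline replicate 4 had 41.1. Sham-treated animals 1 to 5 had 3.84, 11.6, 0.387, 0.954 and 3.03 CPM, so that replicate 3, in which Neurod6 and Neurod2 were high, had the lowest Tbr1 of its group. In batch B, sham-treated animals had 0.0513, 1.12 and 1.88 as lowest, median and highest values, the lowest being 1 count in replicate 10. Tbr1 was even in BWM animals, from 0.968 over 1.38 to 2.24 CPM, and ran from 1.52 over 3.23 to 25.6 in lean animals and from 1.32 to 1.96 in RYGB replicates 12 to 14. Saline-treated animals had 3.01, 1.64 and 4.55 in batch A, against 41.1, 1.97, 6.6, 2.22 and 3.8 in batch B. Animals with PYY3-36 + liraglutide had 4.13, 2.77, 3.16, 15.7 and 1.53 in batch A, against 5.31, 2.66, 7.85, 3.81 and 2.4 in batch B. PYY3-36 gave 1.10, 7.96, 1.89 and 9.42, and liraglutide 3.71, 0.243, 5.03, 5.59 and 4.76. As with Neurod2, all sham-treated animals of batch B, at 1.88 or less, lay under all saline-treated animals of that batch, at 1.97 or more. The nearest values were 39 counts in sham replicate 9 and 45 in saline replicate 5.

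Slc17a7 was the most abundant of the 5 genes. Per kilobase of exon its median level was 9.56 CPM, against 1.41 for Neurod6, 1.09 for Tbr1, 0.560 for Neurod2 and 0.357 for Emx1. Sham-treated animals 1 to 5 had 17.5, 1482, 263, 7.38 and 7.33 CPM, with a mean of 355 ± 639 (SD, n = 5), and in batch B they had 2.87, 11.1 and 40.2 as lowest, median and highest values. RYGB-treated animals went from 1.06 over 7.61 to 639 CPM in batch A and had 14.6, 16.9 and 8.39 in batch B. The spread inside sham-treated animals of batch A was thus larger than any difference between the medians. BWM animals ran from 3.36 over 17.6 to 64.8 and lean animals from 8.32 over 19.6 to 602. Saline-treated animals had 28.4, 7.35 and 13.9 CPM in batch A, against 1066, 24.6, 60.4, 52.9 and 88.2 in batch B. Slc17a7 was higher in every saline-treated animal of batch B but replicate 5 than in any of batch A. With PYY3-36 + liraglutide it was 33.3, 16.2, 1.07, 159 and 4.73 in batch A, against 5.85, 18.9, 192, 18.6 and 31.6 in batch B. It was 42.4, 563, 56.0 and 68.4 with PYY3-36 and 126, 8.94, 34.4, 172 and 51.1 with liraglutide, and both overlapped with saline.

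Emx1 was the least abundant, with a median of 0.586 CPM. No count was found in sham replicate 5 and saline replicate 5, and 5 of 65 libraries, with these, were under 3 counts. Sham-treated animals 1 to 5 had 0.693, 16.2, 0.281, 0.220 and 0 CPM, and those of batch B ran from 0.219 over 0.447 to 1.15. RYGB-treated animals of batch A ran from 0.0341 over 0.276 to 19.9 CPM in replicate 6, the highest of all, and those of batch B had 0.586, 0.189 and 0.714. As with the other genes, 1 animal stood far above each of these batch A groups. BWM animals had 0.162, 0.617 and 4.58 as lowest, median and highest values and lean animals 0.172, 0.612 and 12.6. Saline-treated animals had 0.554, 0.226 and 0.619 in batch A, against 15.2, 0, 3.0, 0.533 and 0.873 in batch B. With PYY3-36 + liraglutide Emx1 was 0.833, 0.442, 0.0687, 6.14 and 0.238 in batch A, against 0.179, 0.328, 3.01, 1.31 and 0.990 in batch B. With PYY3-36 it was 1.46, 8.05, 0.698 and 0.297 and with liraglutide 1.68, 0.729, 0.493, 1.72 and 1.83. For Emx1 the ranges of all 66 pairs among the 12 group-by-batch sets of animals overlapped.

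**Figure D2:**
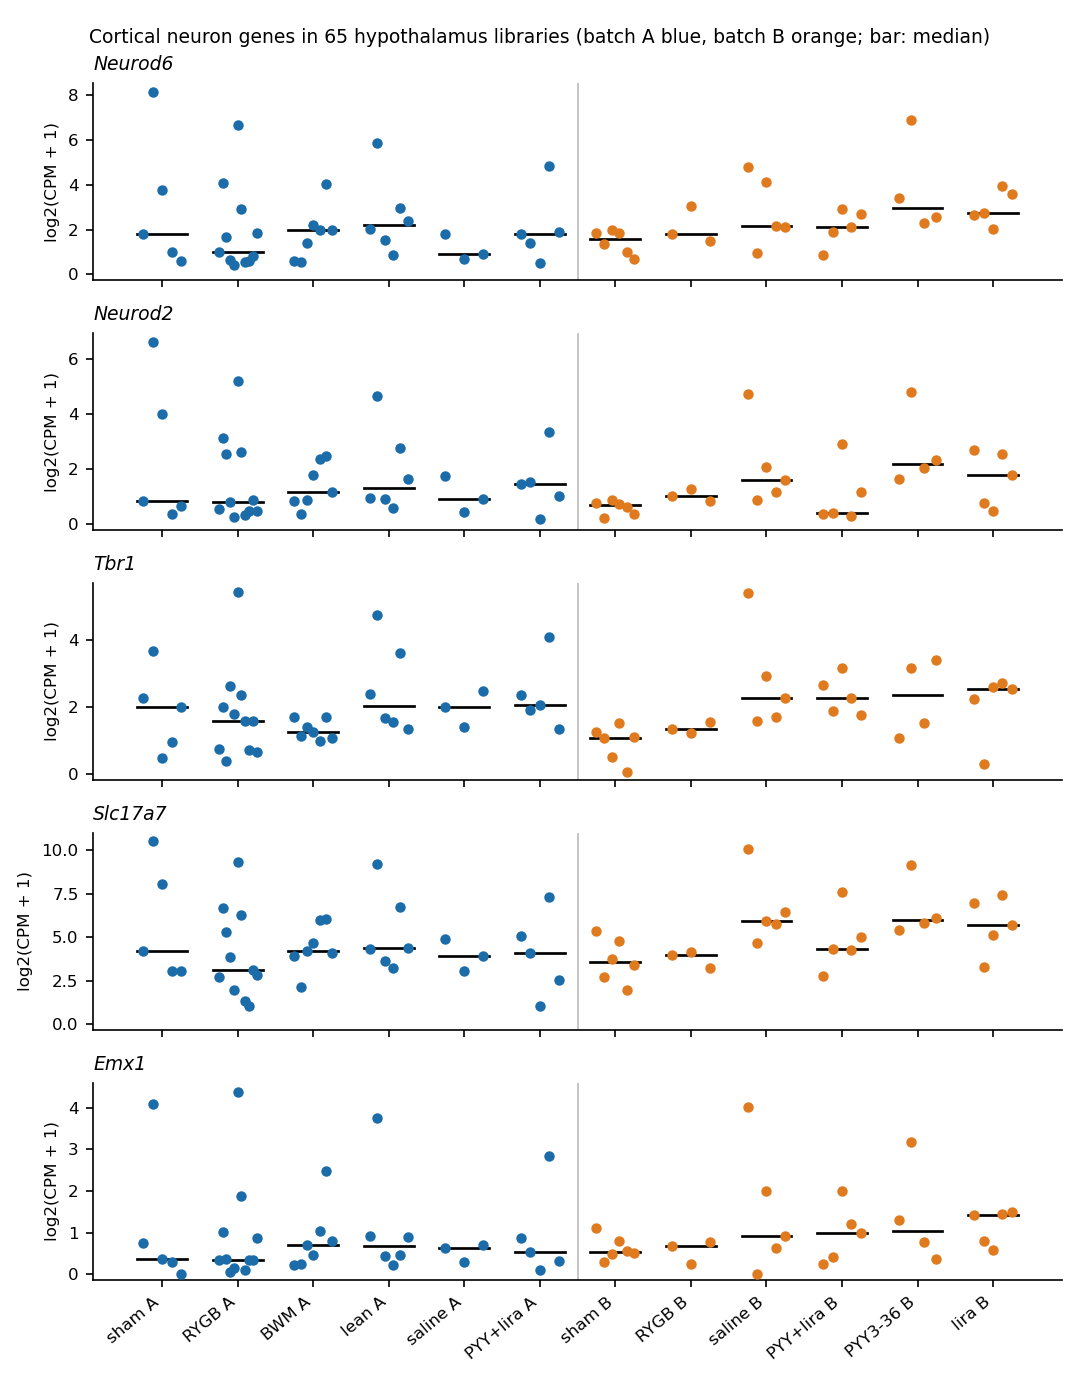
Level of each gene as log2(CPM + 1) (vertical) in every library, in the 12 group-by-batch sets (horizontal; A and B are the batches, PYY+lira is PYY3-36 + liraglutide, lira is liraglutide), with a bar at the median. Sets next to each other in the order of medians overlap for every gene, while sham replicate 2, RYGB replicate 6, lean replicate 2, saline replicate 4 and PYY3-36 replicate 2 stand far above their own sets.

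When the 12 sets were ordered by their medians, animals given PYY3-36 or liraglutide in batch B held the highest places for Neurod6 (7.23 and 5.68 CPM), Neurod2 (3.58 and 2.42) and Tbr1 (4.92 and 4.76). For Slc17a7 the order began with PYY3-36 (62.2 CPM), saline of batch B (60.4) and liraglutide (51.1), and for Emx1 with liraglutide (1.68) and PYY3-36 (1.08). RYGB-treated animals of batch A were last for Slc17a7 (7.61) and Emx1 (0.276), saline-treated animals of batch A for Neurod6 (0.873), sham-treated animals of batch B for Tbr1 (1.12) and PYY3-36 + liraglutide of batch B for Neurod2 (0.328). For each gene, the ranges of all 11 pairs of neighbours in this order overlapped. Of the 66 pairs of sets, ranges did not overlap in 5 for Tbr1, 4 for Neurod6, 4 for Slc17a7 and 3 for Neurod2, each with a set of batch B. These were 4.85% of the pairs for the 5 genes together, against 8.07% over all tested genes.

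The spread between animals of the same set was among the largest of all genes, for genes chosen with earlier results of these data known. On log2(CPM + 1), the SD inside the 12 sets was 2.09 for Slc17a7, 1.64 for Neurod6, 1.39 for Neurod2, 1.09 for Emx1 and 1.07 for Tbr1, against a median of 0.262 over all tested genes. These values were larger than those of 98.9% (Tbr1) to 99.95% (Slc17a7) of tested genes. The coefficient of biological variation estimated by edgeR was between 0.956 (Tbr1) and 1.33 (Emx1), against a median of 0.258. A few animals carried most of the RNA: of the CPM summed over 65 libraries, the 5 highest libraries held 69.8% for Neurod6, 64.7% for Slc17a7, 62.5% for Neurod2, 58.8% for Emx1 and 44.6% for Tbr1. Without the 12 libraries low in hypothalamus markers, the SD was 1.81 for Slc17a7, 1.34 for Neurod6, 1.08 for Neurod2, 0.929 for Tbr1 and 0.838 for Emx1, still larger than those of 98.3% to 99.9% of genes.

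**Figure D3:**
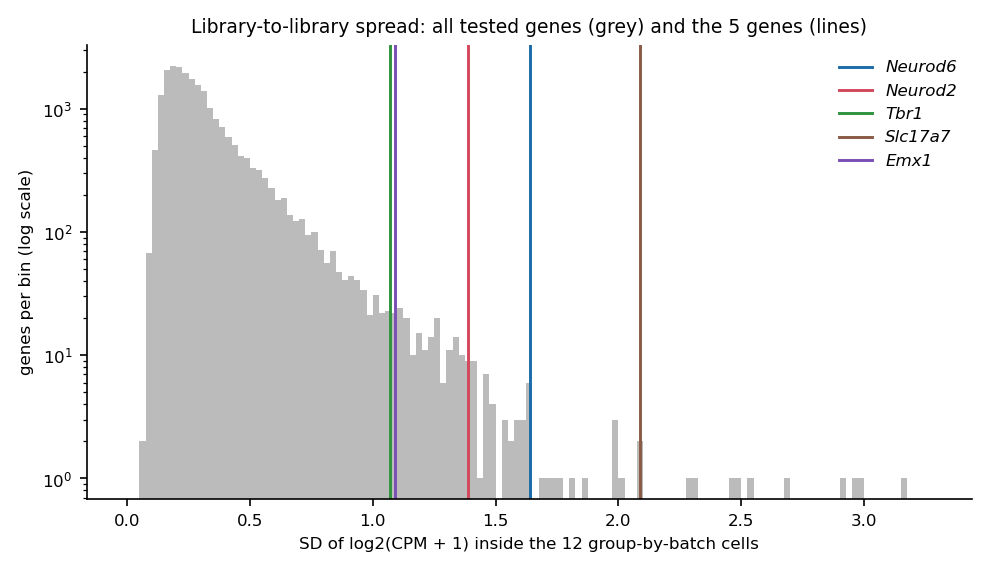
Number of genes per bin (vertical, log scale) against the SD of log2(CPM + 1) between libraries of the same group-by-batch set (horizontal), for all 22207 tested genes in grey, with lines for the 5 cortical neuron genes. All 5 lines, from 1.07 to 2.09, lie in the far right tail, away from the median of 0.262.

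The 5 genes moved together from animal to animal, Tbr1 the least. The correlations were computed on deviations of log2(CPM + 1) from the mean of each set, with permutation p-values adjusted over 10 pairs in 2 batches. In batch A (37 libraries) Neurod2 and Slc17a7 had Spearman's rho 0.96 and Pearson's r 0.96, and in batch B (28 libraries) 0.85 and 0.89. Neurod6 and Neurod2 had rho 0.93 in batch A and 0.75 in batch B, with r 0.95 and 0.79. Neurod6 and Tbr1 had the lowest rho, at 0.38 in batch A (adjusted permutation p = 0.0227) and 0.37 in batch B (adjusted permutation p = 0.0554), with r 0.69 and 0.50. Over the 20 relations, rho passed an adjusted permutation p of 0.05 in 19 and r in 20. Without the 2 libraries farthest from the median of the gene named first, rho ran from 0.23 to 0.95 and r from 0.28 to 0.96. Without the 12 libraries low in hypothalamus markers, rho passed in 8 of 10 pairs in batch A (0.31 to 0.96) and in 4 of 10 in batch B (0.039 to 0.80), so that in batch B part of the relation rested on those libraries.

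The mixture of the 5 genes differed between the high libraries. RYGB replicate 6, lean replicate 2 and sham replicate 2 were among the 5 highest libraries of all 5 genes, PYY3-36 replicate 2 and saline replicate 4 of 4 genes, and PYY3-36 + liraglutide replicate 4 of Neurod6 and Tbr1. In RYGB replicate 6 each gene was 4.22 (Tbr1) to 5.17 (Neurod6) above its median on the log2 scale, a nearly even profile. In sham replicate 2 Neurod6 was 6.69, Neurod2 6.58 and Slc17a7 6.27 above the median, while Tbr1 was 2.38 above it. PYY3-36 replicate 2 also had Neurod6 highest, at 5.42, and Tbr1 lowest, at 1.83, and in saline replicate 4 Neurod6 was the lowest of the 5 at 3.26, against 4.20 for Tbr1. In sham replicate 3, Neurod2 (3.89), Slc17a7 (3.78) and Neurod6 (2.19) were above the median and Tbr1 (-2.53) and Emx1 (-1.06) were under it. As ratios of counts, Tbr1 per Neurod6 ran from 0.0307 to 8.88 over the libraries, with a median of 0.722. A further marker, chosen after its values were seen, also differed between them. Prox1, a factor of dentate granule cells, was 75.2 CPM in sham replicate 2 and 16.1 in RYGB replicate 6. Its median over all libraries was 18.1 CPM. It was 46.1 CPM in sham replicate 1, which was not among the 5 highest libraries of any of the 5 genes.

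**Figure D4:**
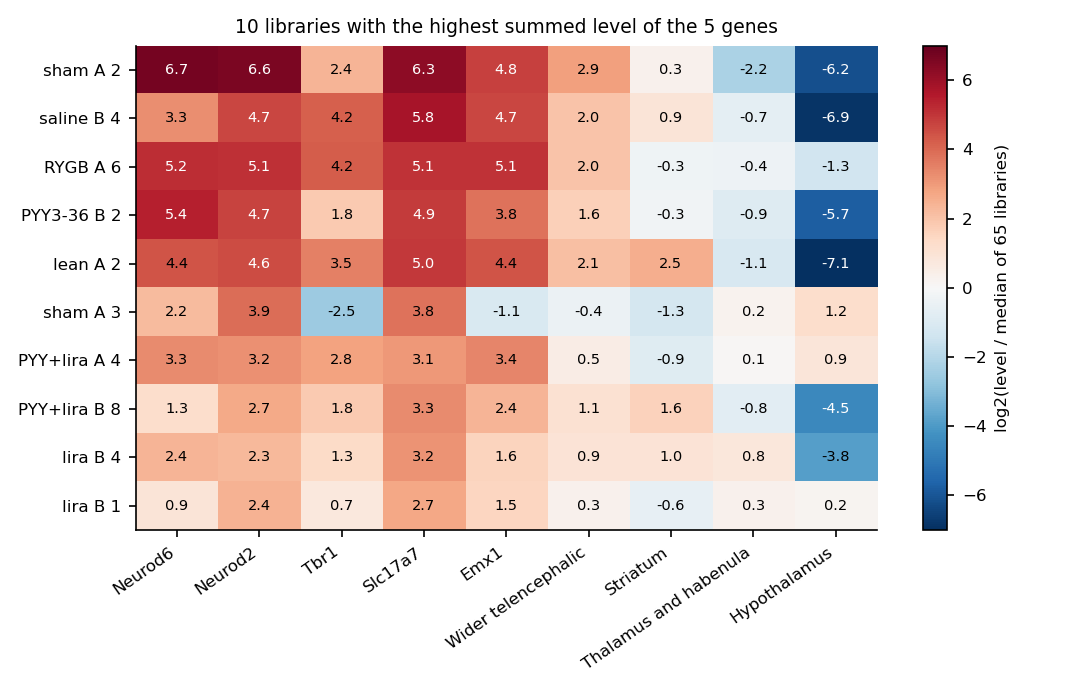
The 10 libraries with the highest summed level of the 5 cortical neuron genes (rows), with the log2 ratio of each level to its median over 65 libraries (colour and number) for the 5 genes and for 4 marker lists (columns). Tbr1 is far less raised than Neurod6 in sham A 2 and PYY3-36 B 2, and 6 of the 10 rows have hypothalamus markers at -3.84 or lower.

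Genes most like the 5 were sought by Spearman's rho with their mean standardised deviation, in each batch apart, and ranked by the lower rho of the 2 batches. This describes 37 and 28 libraries that share depth and composition. The 10 nearest genes were Slc30a3 (lower rho 0.81), Rtn4rl2 (0.81), Prdm8 (0.78), Bhlhe22 (0.78), Zfp238 (0.78), Mfsd4 (0.77), Olfm1 (0.77), Wnt10a (0.76), Sv2b (0.74) and Rtn4r (0.74). Slc30a3 encodes the zinc transporter of glutamatergic vesicles, Rtn4r and Rtn4rl2 encode receptors of the Nogo family, and Sv2b encodes a synaptic vesicle protein. Over all genes the median rho was 0.0019 (batch A) and 0.0016 (batch B). Of a list of 26 further genes of cortex and hippocampus, 7 were among the 100 nearest and 20 were positive in both batches. This list too was chosen with earlier results of these data known. Of the 12 hypothalamus markers and of 3 genes of GABA neurons (Gad1, Gad2 and Slc32a1), 0 were positive in both. The same was true of 8 striatum and 5 meninges markers. In the lists of thalamus and habenula (8 genes), choroid plexus (5) and pituitary (5), 1 each was positive in both. Of general neuron markers it was 3 of 5, of oligodendrocyte markers 4 of 4 and of astrocyte markers 2 of 4. The share of all genes positive in both was not counted.

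Slc17a6 and Slc32a1, transporters of glutamate and of GABA neurons, did not follow. Slc17a6 had a median of 156 CPM (7.90 to 369) and Slc32a1 one of 175 CPM (67.6 to 431). Slc32a1 was not particular to the hypothalamus: it was highest in BWM replicate 1, whose hypothalamus markers summed to 16.2 CPM. With Slc17a6, the 5 genes had rho from -0.41 to -0.016 in batch A and from -0.31 to -0.074 in batch B, and r from -0.48 to -0.29 over both batches. With Slc32a1, rho ran from -0.61 to 0.18 in batch A and from -0.52 to -0.016 in batch B, and r from -0.50 to 0.068. Of 10 relations with each gene, rho passed an adjusted permutation p of 0.05 in 1 for Slc17a6 and in 7 for Slc32a1, r passed in 6 and 7, and Tbr1 had no such relation with Slc32a1. Without the 2 farthest libraries, r with Slc17a6 ran from -0.38 to 0.000062 and rho from -0.31 to 0.15, so that this relation rested in part on those libraries, while with Slc32a1 r ran from -0.49 to 0.16 and rho from -0.58 to 0.24. The usual order of Slc17a7 and Slc17a6 was turned round in several libraries. Slc17a7 and Slc17a6 were 1482 and 12.3 CPM in sham replicate 2, and 1066 and 70.5 in saline replicate 4. They were 639 and 85.9 in RYGB replicate 6, and 602 and 14.3 in lean replicate 2. In sham replicate 3, whose hypothalamus markers were above their median, they were 263 and 212.

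The question of the study was whether surgery, food restriction or gut hormones alter gene expression in the hypothalamus. In edgeR's quasi-likelihood test, a gene counted as called where its log2 fold change was over 1 in either direction and its p, adjusted by Benjamini and Hochberg, was under 0.05. DESeq2 was run beside it. By edgeR, none of the 5 genes passed in the 11 comparisons inside a batch, although fitted differences reached 5.48 on the log2 scale. The median log2 fold change over all genes lay between -0.023 and 0.018 in each of them. The share of all tested genes at an unadjusted p under 0.05 differed widely. It ran from 0.748% in PYY3-36 + liraglutide vs. saline of batch A to 25.4% in RYGB vs. sham of batch A.

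In RYGB- vs. sham-treated animals of batch A, 0 of the 5 genes were called by edgeR, against 3.06% of all tested genes, and 0 by DESeq2. At an unadjusted p under 0.05 were 2 of the 5, against 25.4% of all tested genes. Neurod6 was -2.35 (SE 1.03, adjusted p = 0.136), Neurod2 -2.15 (SE 0.97, adjusted p = 0.148) and Slc17a7 -2.13 (SE 1.08, adjusted p = 0.205), by edgeR. Emx1 was -0.58 and Tbr1 0.51, with SE 1.07 and 0.80. The direction rested on single animals. Without sham replicate 2 the values became 1.51 for Neurod6, 0.29 for Neurod2, 0.14 for Slc17a7 and 2.92 for Emx1. Without RYGB replicate 6, Neurod6 (-4.28), Neurod2 (-3.43) and Slc17a7 (-3.79) were called lower, with adjusted p = 0.00518, 0.0136 and 0.0141 by edgeR, and Tbr1 became -0.93. Over the fits that each left out 1 library, 168 to 958 of all genes were called. In batch B, 0 were called, with 0 at an unadjusted p under 0.05 and 0 by DESeq2, against 1.55% of all genes. The fitted values there ran from -0.29 for Slc17a7 to 1.03 for Neurod6, with SE between 1.08 and 1.61.

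In BWM vs. sham-treated animals of batch A, 0 were called, against 3.02% of all genes. At an unadjusted p under 0.05 were 3, against 19.6% of all genes. Neurod6 was -3.93 (SE 1.26, adjusted p = 0.0513), Slc17a7 -3.62 (SE 1.29, adjusted p = 0.0864) and Neurod2 -3.48 (SE 1.16, adjusted p = 0.0633), just outside the threshold of edgeR. DESeq2 called these 3 genes lower, with adjusted p between 0.0107 and 0.0255. Over all genes, 62 to 920 were called in the alternative settings, DESeq2 among them. The medians did not show this difference: Neurod6 had 2.97 CPM in BWM and 2.52 in sham-treated animals, and Slc17a7 17.6 and 17.5. Without sham replicate 2, whose hypothalamus markers were at 0.014 of the median, Neurod6 was -0.076, Neurod2 -1.03 and Slc17a7 -1.35, while leaving out sham replicate 1, 4 or 5 made Neurod6 and Neurod2 pass, and leaving out BWM replicate 6 made Neurod6 pass. With 1 library left out, 164 to 1086 of all genes were called. Tbr1 was -1.37 and Emx1 -1.67, with adjusted p = 0.399 and 0.475 by edgeR.

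In lean vs. sham-treated animals, 0 were called, with 0 at an unadjusted p under 0.05 and 0 by DESeq2, where 0.0766% of all genes were called. Neurod6 was -2.27 (SE 1.25) and Tbr1 0.96 (SE 0.90), and without sham replicate 2 the values were 1.59 and 1.91. In RYGB vs. BWM animals, 0 were called by edgeR, against 0.167% of all genes, and 0 by DESeq2. At an unadjusted p under 0.05 was 1, against 8.49% of all genes. All 5 were on the positive side, from 1.09 for Emx1 to 1.88 for Tbr1 (SE 0.77, adjusted p = 0.521 by edgeR). Without RYGB replicate 6, Neurod6 became -0.34, Slc17a7 -0.17 and Emx1 -0.91, and Tbr1 fell to 0.44.

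Of the hormone treatments, PYY3-36 + liraglutide was given in both batches, with opposite signs. With PYY3-36 + liraglutide vs. saline in batch A, 0 of the 5 were called, 0 had an unadjusted p under 0.05 and DESeq2 called 0. Of all genes 0% were called there by edgeR (166 at an unadjusted p under 0.05 and 1 by DESeq2). The values ran from 0.83 for Tbr1 to 2.37 for Neurod6, and without PYY3-36 + liraglutide replicate 4 from -0.26 for Slc17a7 to 0.44 for Neurod6. In batch B, again 0 were called, with 0 at an unadjusted p under 0.05 and 0 by DESeq2, against 0.0135% of all genes, and the values ran from -2.27 for Slc17a7 to -1.34 for Tbr1. Without saline replicate 4 they ran from -0.69 for Neurod6 to 0.27 for Tbr1.

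With PYY3-36 vs. saline, 0 were called, with 0 at an unadjusted p under 0.05 and 0 by DESeq2, against 0.0045% of all genes. Neurod6 was 1.74 (SE 1.37) and Tbr1 -1.13 (SE 1.0). Neurod6 became -0.73 without PYY3-36 replicate 2, and Slc17a7, at -0.50, became 1.69 without saline replicate 4. With liraglutide vs. saline, 0 were called, with 0 at an unadjusted p under 0.05 and 0 by DESeq2, against 0.00901% of all genes, and all 5 values were negative, from -1.72 for Slc17a7 to -0.37 for Neurod6. Without saline replicate 4 all 5 were positive, from 0.085 for Tbr1 to 0.60 for Neurod2. These 3 comparisons of batch B share their saline-treated animals, so that 1 animal moved them all.

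Sham- vs. saline-treated animals, both controls, gave the largest fitted values, of opposite sign in the 2 batches. In batch A, 0 were called by edgeR, with 3 at an unadjusted p under 0.05, where 0% of all genes were called (3165 at an unadjusted p under 0.05 and 34 by DESeq2). Neurod6 was 5.48 (SE 1.97, adjusted p = 0.235 by edgeR), Slc17a7 4.42 and Neurod2 4.23, and DESeq2 called Neurod6, with an adjusted p of 0.0427. Without sham replicate 2 these were 1.63, 2.15 and 1.79. In batch B, 0 were called by edgeR, against 0.0225% of all genes, and 0 by DESeq2. At an unadjusted p under 0.05 were 4, against 9.56% of all genes. Slc17a7 was -3.99 (SE 1.4), Neurod2 -3.60 (SE 1.31), Tbr1 -3.47 (SE 0.96), Emx1 -2.81 (SE 1.33) and Neurod6 -2.43 (SE 1.31), with adjusted p from 0.262 to 0.549 by edgeR. Without saline replicate 4 they lay between -1.87 (Tbr1) and -0.98 (Emx1), still negative for all 5.

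The difference of effects between batches was tested directly. For sham vs. saline it ran from -8.42 for Slc17a7 to -3.85 for Tbr1, and 0 of the 5 were called, with 5 at an unadjusted p under 0.05, against 0.0045% of all genes called and 11% at an unadjusted p under 0.05. Without sham replicate 2, Neurod6 went from -7.92 to -4.06 and Emx1 from -5.70 to -2.20, and without saline replicate 4 Tbr1 went to -2.24, with no change of sign for any of the 5. The adjusted p ran from 0.169 to 0.312 by edgeR, whereas DESeq2 called Neurod6, Neurod2 and Slc17a7. Over all genes, 0 to 86 were called there in the alternative settings, DESeq2 among them. For RYGB vs. sham and for PYY3-36 + liraglutide vs. saline, 0 of the 5 were called, 0 had an unadjusted p under 0.05 and DESeq2 called 0, and 0% of all genes were called by edgeR in each (2302 and 736 at an unadjusted p under 0.05, 145 and 11 by DESeq2). Without sham replicate 2 the difference for RYGB vs. sham went from 3.38 to -0.48 for Neurod6 and from 0.41 to -3.09 for Emx1. That for PYY3-36 + liraglutide went from -2.17 to -0.56 for Tbr1 and from -3.65 to -1.45 for Slc17a7 without saline replicate 4. Between the batches themselves, over the 4 groups present in both, 5.77% of all genes were called and 0 of the 5. At an unadjusted p under 0.05 were 48.5% of all genes and 1 of the 5. This was Neurod2, at -1.48 (SE 0.67, adjusted p = 0.0726 by edgeR). DESeq2 called it, and edgeR did so without saline replicate 4, without PYY3-36 + liraglutide replicate 8, or without the 12 libraries low in hypothalamus markers (-1.86, adjusted p = 0.0187). Of all genes, 1300 to 2075 were called in the alternative settings and 1187 to 1369 with 1 library left out. Without sham replicate 2 Neurod2 was -0.87 (adjusted p = 0.288 by edgeR).

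**Figure D5:**
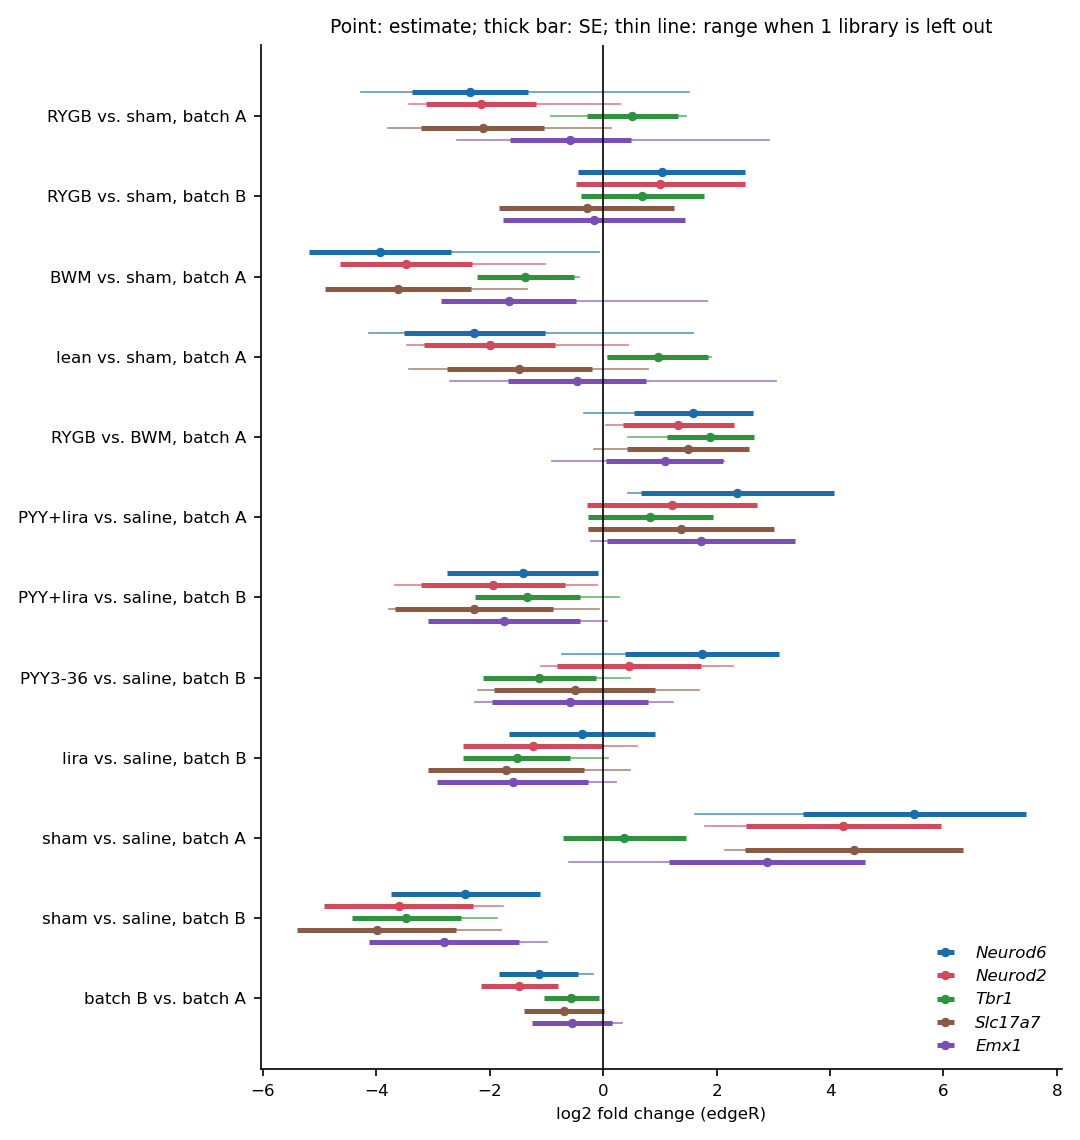
Log2 fold change of each gene (horizontal) in 11 comparisons inside a batch and between the batches (vertical), with the SE of edgeR as a thick bar and the range of values over fits that each leave out 1 library as a thin line. Thin lines cross 0 for all 5 genes in RYGB vs. sham of batch A, and for none of them in sham vs. saline of batch B.

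The 26 further genes of cortex and hippocampus were all tested. Their median log2 fold change was -0.79 in RYGB vs. sham of batch A, with 2 called lower and 0 higher, -1.01 in BWM vs. sham, with 2 called lower and 0 higher, and -0.40 in lean vs. sham, with 1 called lower. The share of all tested genes called, in either direction, was 3.06%, 3.02% and 0.0766% in these comparisons. In the other 8 comparisons inside a batch and between the batches, edgeR called 0 of them, with 0 to 9 at an unadjusted p under 0.05, and the median ran from -0.49 in liraglutide vs. saline to 1.06 in sham vs. saline of batch A. There, 0.748% to 48.5% of all tested genes had an unadjusted p under 0.05. Calls of DESeq2 were not counted for marker lists. The called genes, named after their values were seen, were Bhlhe22 (-2.04, SE 0.59) and Hpca (-1.85, SE 0.51) for RYGB, Nptx1 (-1.43, SE 0.45) and Prox1 (-1.08, SE 0.31) for BWM, and Prox1 (-1.42, SE 0.32) for lean animals, with adjusted p between 0.0208 and 0.0477 by edgeR. In sham-treated animals 1 to 5 Prox1 was 46.1, 75.2, 18.6, 15.0 and 15.7 CPM, so that replicates 1 and 2 stood above the rest. It ran from 5.02 to 24.5 in BWM and from 8.89 to 19.5 in lean animals. Fits that leave out 1 library were not examined for the genes of these lists. Other marker lists moved in the same comparisons. In RYGB vs. sham of batch A all 5 meninges markers were called higher, with a median of 3.38, and 3 of 8 markers of thalamus and habenula were called lower, with a median of -1.17. Of 5 choroid plexus markers (median 0.985), 1 was called higher there. In BWM vs. sham, all 5 meninges markers (median 3.3), 3 of 5 pituitary markers (median 9.33) and 1 of 5 choroid plexus markers (median 1.44) were called higher. The pituitary values rested largely on 1 animal. Summed pituitary markers were 76409 CPM in BWM replicate 5, and from 0.454 to 1110 CPM in the other BWM animals. Of the hypothalamus markers, edgeR called 0 of 12 in RYGB vs. sham of batch A. Among these 12, 1 had an unadjusted p under 0.05, against 25.4% of all tested genes. The summed CPM of the 12 markers ran from 24.3 to 4123 in sham-treated and from 703 to 6890 in RYGB-treated animals. The part of these lists in the values of the cortical neuron genes was not tested.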

How the data were processed

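Hypothalami of 65 rats were measured by RNA-seq, with 1 library per animal. The deposited values were estimated counts per gene, which the authors made from stranded single-end reads of 75 nt with cutadapt (1.16 in the submitters' processing notes, with later versions also named in the study's methods), STAR 2.7.2b (Rnor_6.0, RefSeq annotation 106) and featureCounts 1.6.4 over exons, where reads that mapped or overlapped more than once were counted as fractions. Of the nonzero values, 30.3% were not whole. Counting by fractions can share reads between similar or overlapping genes. Nothing in the labels ties 2 libraries to 1 animal, and 1 PYY3-36 animal had been excluded by the authors.

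Counts were rounded, which changed no library total by more than 0.00104%. Genes with low counts were removed by filterByExpr (minimum count 10, minimum total 15), and edgeR 4.0.16 in R 4.3.3 fitted TMM-normalised counts by its robust quasi-likelihood test, with 1 mean for each of the 12 group-by-batch sets over all 65 libraries. Depth set the counting error, and limits of counting refer to that error only. A call needed a log2 fold change over 1 in either direction, with a p under 0.05 after adjustment by Benjamini and Hochberg. Correlations used 100000 permutations. Python 3.11.15, numpy 2.4.6, pandas 2.3.3 and scipy 1.17.1 were used. The scripts were tested on simulated data.

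No pair of libraries of 1 set agreed within sampling noise (lowest chi-square per degree of freedom 16.5 over 168 pairs). Replicate numbers marked no shared animal: over 87 pairs of libraries with 1 number, deviations correlated with a median of 0.0043. Alternatives were DESeq2 1.42.0, its size factors, no filter, each batch alone, both batches with a batch term, the number as a block, a pseudocount of 0.1 in place of 1, leaving out each library, and, chosen after seeing the data, leaving out the 12 libraries low in hypothalamus markers. The members and lists were chosen with earlier results of these data known. Named beside the members were the 10 genes most like them in both batches, at most 4 genes of each wider list but that of the hypothalamus, those with the highest mean CPM, and Slc17a6 and Slc32a1 as reference. The hypothalamus markers were all named, and those without a count in a library were singled out after their values were seen. The values of 1 gene of the wider list are not reported here. Other genes are said to be chosen after their values were seen.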

Additional observations from a re-analysis of the deposited data

Results flagged for a closer look

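In groups of 4 to 10 animals inside a batch, 45 gene-by-group sets were examined with Dixon's test, and in 25 of them the highest animal stood apart from the rest. In normal, independent sets chance gives about 1 in 20, but these levels were skewed, since 5 sets stood apart on the log2 scale, and the 5 genes share their animals, with 7 animals giving all 25. RYGB-treated animals of batch A, 11 in number, were not examined.

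Sham replicate 2 stood apart for Neurod6 (285 CPM), Neurod2 (96.9), Slc17a7 (1482) and Emx1 (16.2). Lean replicate 2 did so for Neurod6 (58.1), Neurod2 (23.8), Slc17a7 (602) and Emx1 (12.6), and PYY3-36 replicate 2 for Neurod6 (118), Neurod2 (27.0), Slc17a7 (563) and Emx1 (8.05). Saline replicate 4 stood apart for Neurod2 (25.5), Slc17a7 (1066), Emx1 (15.2) and Tbr1 (41.1). In these 4 libraries the hypothalamus markers summed to 12.5 to 32.6 CPM.

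PYY3-36 + liraglutide replicate 4 stood apart for all 5 genes, Neurod6 (27.4), Neurod2 (9.21), Slc17a7 (159), Emx1 (6.14) and Tbr1 (15.7), with hypothalamus markers at 3178 CPM. PYY3-36 + liraglutide replicate 8 did so for Neurod2 (6.46) and Slc17a7 (192), with 76.5 CPM of those markers, and BWM replicate 6 for Neurod6 (15.5) and Emx1 (4.58), with 4336 CPM. The part of the marker levels in these values was not tested.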

How the results depend on the processing

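Size factors of DESeq2, no filter on low counts and each batch fitted alone changed no direction and no call of the 5 genes. DESeq2 called 3 of them in BWM vs. sham, 1 in sham vs. saline of batch A, 1 between the batches and 3 in the difference of sham vs. saline between batches. With the replicate number as a block, Neurod6 in liraglutide vs. saline was 0.73 and Tbr1 in sham vs. saline of batch A was -0.17, and no call changed; 8 of 57 libraries correlated best with their own number, and no block could be fitted for RYGB of batch B or between the batches.

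With both batches and a batch term, RYGB vs. sham of batch B was -1.37 for Neurod6 and -1.26 for Neurod2, lean vs. sham 0.14 for Emx1, and PYY3-36 + liraglutide vs. saline of batch A -1.16 for Neurod6, -1.85 for Neurod2, -1.02 for Tbr1, -2.27 for Slc17a7 and -1.41 for Emx1. PYY3-36 vs. saline was 0.16 for Slc17a7 and 0.065 for Emx1, and liraglutide vs. saline 0.30 for Neurod6. Sham vs. saline was -0.51 for Neurod2, -2.24 for Tbr1, -1.36 for Slc17a7 and -1.20 for Emx1 in place of batch A, and 0.50 for Neurod6 in place of batch B.

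Without the 12 libraries low in hypothalamus markers, RYGB vs. sham of batch A was 1.52 for Neurod6, 0.31 for Neurod2, 0.15 for Slc17a7 and 2.92 for Emx1, and of batch B 0.19 for Emx1. BWM vs. sham was 0.13 for Neurod6 and 2.03 for Emx1, lean vs. sham 0.88 for Emx1 and PYY3-36 vs. saline 0.20 for Tbr1. Liraglutide vs. saline was 0.27 for Neurod6, 0.68 for Neurod2, 0.17 for Slc17a7 and 0.38 for Emx1, and sham vs. saline of batch A -0.18 for Tbr1 and -0.37 for Emx1. Between the batches 1 of the 5 was then called. The SD of Emx1 was 1.82 with a pseudocount of 0.1.

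Leaving out 1 library moved RYGB vs. sham of batch A from -4.28 to 1.51 for Neurod6, -3.43 to 0.29 for Neurod2, -0.93 to 1.46 for Tbr1, -3.79 to 0.14 for Slc17a7 and -2.58 to 2.92 for Emx1, with 0 to 3 called. In batch B it moved Slc17a7 from -0.51 to 0.21 and Emx1 from -0.52 to 0.22. BWM vs. sham ran from -2.69 to 1.83 for Emx1, with 0 to 2 called. Lean vs. sham ran from -4.13 to 1.59 for Neurod6, -3.45 to 0.44 for Neurod2, -3.43 to 0.79 for Slc17a7 and -2.69 to 3.04 for Emx1. RYGB vs. BWM ran from -0.34 to 2.51 for Neurod6, -0.17 to 1.80 for Slc17a7 and -0.91 to 2.12 for Emx1. PYY3-36 + liraglutide vs. saline ran from -0.0013 to 2.20 for Neurod2, -0.084 to 1.24 for Tbr1, -0.26 to 2.03 for Slc17a7 and -0.21 to 2.03 for Emx1 in batch A, and from -1.65 to 0.27 for Tbr1 and -2.46 to 0.074 for Emx1 in batch B. PYY3-36 vs. saline ran from -0.73 to 2.48 for Neurod6, -1.09 to 2.30 for Neurod2, -1.61 to 0.48 for Tbr1, -2.22 to 1.69 for Slc17a7 and -2.26 to 1.24 for Emx1. Liraglutide vs. saline ran from -0.70 to 0.36 for Neurod6, -1.64 to 0.60 for Neurod2, -1.79 to 0.085 for Tbr1, -2.23 to 0.48 for Slc17a7 and -1.92 to 0.23 for Emx1. Sham vs. saline of batch A ran from -0.57 to 0.77 for Tbr1 and -0.61 to 3.19 for Emx1, and batch B vs. batch A from -1.0 to 0.33 for Emx1, with 0 to 1 called. Sign changes numbered 35, of which sham replicate 2 gave 12 and saline replicate 4 gave 10. The cause was not tested.

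Counts over all genes moved too. In RYGB vs. sham they were 680 in batch A (294 to 922 under other settings, 168 to 958 with 1 library left out) and 345 in batch B (0 to 607 and 6 to 702). They were 670 in BWM vs. sham (62 to 920 and 164 to 1086), 17 in lean vs. sham (0 to 206 and 0 to 225), 37 in RYGB vs. BWM (0 to 63 and 2 to 63) and 1282 between batches (1300 to 2075 and 1187 to 1369). In the comparisons with saline they were at most 5, against at most 34 under other settings and 77 with 1 library left out. The lowest counts with 1 library left out came without sham replicate 2 in RYGB vs. sham of batch A, without RYGB replicate 12 in batch B, and without BWM replicate 7 in BWM vs. sham. Depth limited Emx1 most, with 5 libraries under 3 counts.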

Other observations

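The gene that went most against the 5 in both batches was Isl1, a factor of hypothalamic and striatal neurons that was chosen after its values were seen, with rho -0.71 in batch A and -0.69 in batch B against their mean deviation, over 37 and 28 libraries that share depth and composition. In lean replicate 2, where all 5 genes were high, Drd1, a dopamine receptor of striatal neurons also chosen in this way, was 174 CPM. Slc17a7 counts per count of Neurod6 ran from 1.57 to 40.3 over the libraries, with a median of 7.28, and Neurod2 per Neurod6 from 0.0702 to 2.19, with a median of 0.462.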
